A study of Mus musculus with 8 samples.

Results

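Foxk1 binding was examined across 1 Mb of mouse chromosome 5, from 91.0 to 92.0 Mb on the mm9 assembly, which holds a group of chemokine genes (Cxcl1, Cxcl2, Cxcl3, Cxcl5 and Pf4) and 3 genes for ligands of the epidermal growth factor (EGF) receptor (Ereg, Areg and Btc). All peaks of the deposited Foxk1 list whose summit lay in that window were taken, which gave 54 of 28933 peaks. The window was picked from the peak list itself, so its peak number and the place of its strongest peaks are descriptions, and no test was made. The series held 8 chromatin libraries from untreated mouse embryonic fibroblasts (MEFs), connective-tissue cells cultured from embryos in DMEM medium: 3 were made with a Foxk1 antibody, 3 with IgG, and 2 were input with no antibody. The labels give no genotype, strain or passage for the cells. The list names 1 comparison, Foxk1 against input, and gives 1 signal value and 1 q-value per peak. There is therefore no value per library, no replicate error and no known depth. Signal from the Foxk1 antibody and signal that IgG would also give cannot be told apart in these values. The signal values are those the authors deposited, as scores on an unstated scale.

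Foxk1 is a forkhead transcription factor, which binds DNA through a winged-helix domain and is best known as a repressor that works with the Sin3 complex, with targets in autophagy and glucose metabolism. CXC chemokines are small secreted proteins. Cxcl1, Cxcl2, Cxcl3 and Cxcl5 draw neutrophils through the receptor Cxcr2, and fibroblasts release several of them under inflammatory stimuli, with NF-kB as the classic activator. Pf4 (platelet factor 4) is a chemokine stored in platelet granules. Ereg (epiregulin), Areg (amphiregulin) and Btc (betacellulin) are made as membrane-anchored precursors, are shed by proteases and activate Egfr, and Ereg and Btc also act on Erbb4.

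All 8 genes were matched by symbol in the RefSeq gene table, which is on another assembly (GRCm38.p6) and served here only for the order of genes. From low to high coordinates the protein-coding order was Rassf6, Cxcl5, Ppbp, Pf4, Cxcl3, Cxcl15, Cxcl1, Cxcl2, Mthfd2l, Epgn, Ereg, Areg, Btc and Parm1. The chemokine genes in this row include Ppbp (pro-platelet basic protein) and Cxcl15, and the EGF-type ligands include Epgn (epigen), all of which lie among the 8 genes. Mthfd2l, a mitochondrial enzyme of folate metabolism, stands between both families. On mm9 the chemokine genes are placed near 91.2 to 91.35 Mb and Ereg, Areg and Btc near 91.5 to 91.8 Mb. These are approximate edges. No mm9 annotation was used here, so a peak is assigned to a stretch and not to a gene, exon, intron or start site.

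Sequence under the peaks was not analysed here for lack of an mm9 genome, but the upstream sequence of the genes can be read from the RefSeq promoter table. It held 300 bases (250 before and 50 after the start) for 6 of the 8 genes, and not for Cxcl5 and Ereg. The 3 closely related neutrophil chemokines are shown here because their promoters share a stretch of 11 bases, in capitals, found as the longest run common to the 250 bases before each start. Each stretch is on the plus strand of GRCm38.p6, whose coordinates cannot be set against those of the peaks: chr5:90891144-90891214 for Cxcl1, chr5:90903772-90903842 for Cxcl2 and chr5:90785998-90786068 for Cxcl3.
Cxcl1: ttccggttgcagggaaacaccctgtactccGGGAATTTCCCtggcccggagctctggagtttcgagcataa
Cxcl2: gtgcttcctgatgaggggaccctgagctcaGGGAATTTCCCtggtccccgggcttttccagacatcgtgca
Cxcl3: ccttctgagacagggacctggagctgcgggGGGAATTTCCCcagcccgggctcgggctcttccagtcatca

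The shared run began 71 bases before the start of Cxcl1, 97 before that of Cxcl2 and 73 before that of Cxcl3. It has the form of an NF-kB site. In the whole table it occurred in 14 of 32851 promoters of this length (0.0426%). Cxcl1, Cxcl2 and Cxcl3 account for 3 of these by definition, because the run was taken from them. The promoters of Pf4, Areg and Btc did not hold it. The forkhead word GTAAACA was in none of the 6 promoters on either strand, against 3.65% of all promoters, and its shorter part TAAACA was in none, against 13.4%. The AP-1 word TGACTCA was also in none of the 6, against 5.2% of all. No match says only that these letters are not in these 300 bases of 6 genes.

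The window was densely filled with peaks. Its 54 peaks compare with a median of 8 and a 75th percentile of 17 over the 2645 windows of 1 Mb that tile the chromosomes, and 6 windows, this one included, held 54 or more. On chromosome 5 no other of the 153 windows held as many, and the next fullest, from 107 to 108 Mb, held 41. The Mb before the window held 31 peaks and the Mb after it 26. The sum of signal values in the window was 1735, against a median of 190.4 over all windows, and 2 windows, this one included, reached that sum.

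**Figure D1:**
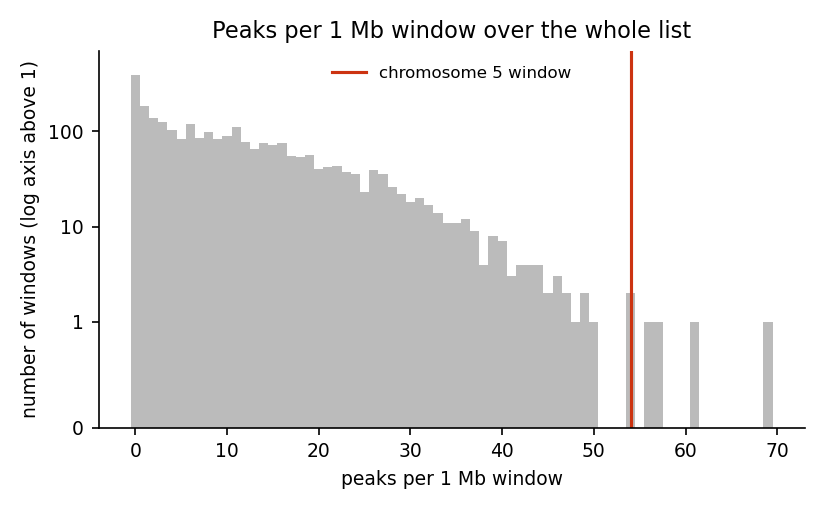
Number of 1 Mb windows (vertical, log above 1) against the number of Foxk1 peaks per window (horizontal), over 2645 windows of the deposited list. The red line marks the chromosome 5 window, with 54 peaks, where the median window held 8.

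Both edges of the window fell into long intervals without peaks. The last peak before it, with a signal value of 13.1, lay 91.11 kb below the lower edge, and the first peak inside it, with 26.6, lay 40.62 kb above that edge. At the upper end the last peak inside, with 26.0, lay 4.14 kb below the edge, and the first outside, with 45.1, lay 389 kb beyond it.

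The highest peak lay in the EGF-ligand stretch, the next in the chemokine stretch, and the third outside both. That highest peak ran from 91712030 to 91712489, and its signal value was 239. It ranked 2 on chromosome 5 and 26 in the whole list, and it held 13.8% of all signal in the window. The next was in the chemokine stretch, from 91261346 to 91261805, at 134, rank 178 in the list. The first was thus 1.78 times as high as the next and 9.61 times the median of the window.

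Only 3 other peaks reached a signal value of 50. The peak from 91146921 to 91147380, with a value of 97.8, lay below the edge given for the chemokine genes. Another, with 73.6, lay from 91501177 to 91501636, within 2 kb of the lower edge given for Ereg, Areg and Btc. The fifth, with 68.3, lay from 91305038 to 91305497 in the chemokine stretch. These 5 peaks held 35.4% of the window's signal, and a clear step separated them from the sixth, at 45.6.

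The remaining members of the 10 highest peaks were close to each other in height. Those with signal values of 45.6, 44.7 and 43.1 started at 91110925, 91160331 and 91112175, all below the chemokine stretch. The other two lay above the EGF-ligand stretch, at 91994262 with a signal value of 38.3 and at 91829441 with 37.3. The latter is the first peak beyond the approximate upper edge given for Btc, and no other peak lay within 88 kb of it.

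**Figure D2:**
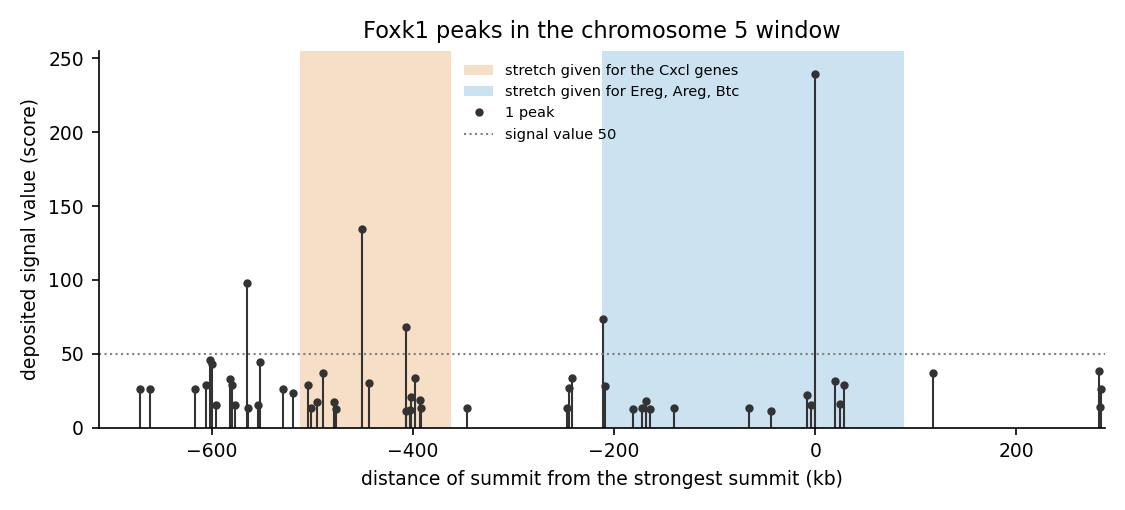
Each stem is 1 Foxk1 peak, placed by the distance of its summit from the strongest summit in kb (horizontal) with its deposited signal value (vertical). Shading marks the stretches given for the Cxcl genes and for Ereg, Areg and Btc; the peak of 239 stands in the latter, that of 134 in the former, and the dotted line is a signal value of 50.

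The share of strong peaks was near that of the list at a signal limit of 50 and above it at 100, where it rests on 2 peaks. At a limit of 50 for the signal value, 5 of 54 peaks passed (9.26%), close to the 7.97% of the whole list. The limit of 100 was passed by 2 of 54 (3.70%), against 1.47% of the list. The lowest q-value of 0.00014 was given to 8 of 54 (14.8%), against 12.3%. The middle of the distribution was higher than that of the list: the median signal value was 24.9, against 17.8 for all peaks and 18.5 for chromosome 5. A signal value of 20, a limit chosen after the values were seen, was reached by 30 of 54 peaks (55.6%), against 41.8% of the list. The quartiles of the window were 13.7 and 32.9, against 13.5 and 27.6 for all peaks, and its weakest peak, at 11.4, lay at the lower limit of the list (11.32). Signal values from 20 to 40 were given to 22 of the 54 peaks (40.7%) and to 29.2% of the list.

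**Figure D3:**
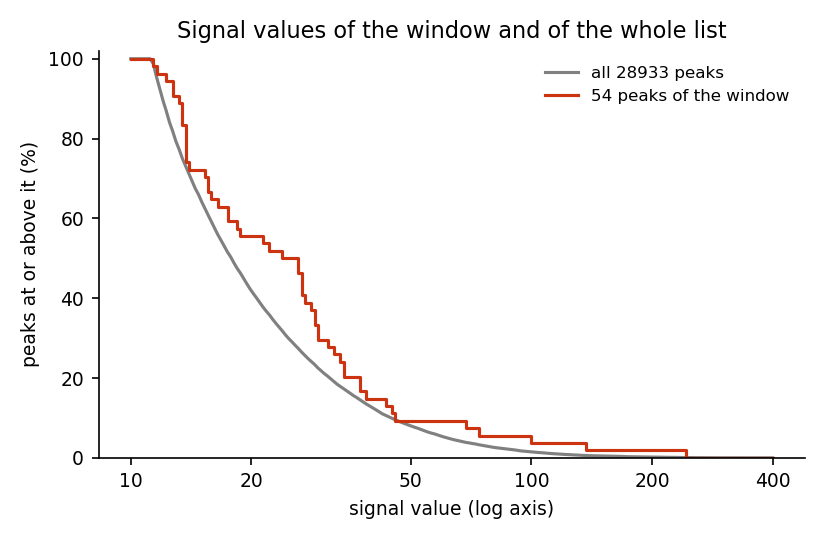
Percent of peaks (vertical) at or above each signal value (horizontal, log axis) for the 54 peaks of the window in red and for all 28933 peaks in grey. The red curve is higher over most of the range. It nears the grey one between 13.7 and 14.0, and lies slightly under it near 11.4, near 45.7 and beyond its own highest peak. At 50 itself 9.26% of the window and 7.97% of the list remain. The upper end of the red curve rests on 5 peaks.

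Peaks were unevenly spread inside the window. The chemokine stretch of 150 kb held 15 peaks, or 10 per 100 kb, with a summed signal value of 470. The EGF-ligand stretch of 300 kb held as many, or 5 per 100 kb, with a sum of 551. The 200 kb below the chemokine stretch held 16 peaks, or 8 per 100 kb, with a sum of 511. Between both gene stretches, where the gene order places Mthfd2l and Epgn, 150 kb held 4 peaks, and the last 200 kb of the window held 4. Per 100 kb the summed signal was 313 in the chemokine stretch, 256 below it, 184 in the EGF-ligand stretch and 58.4 between them.

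Both gene stretches had 2 peaks at or above 50. Their medians were lower than that of the whole window and lay on both sides of the list median of 17.8. In the EGF-ligand stretch the median was 16.3, and 6 of its 15 peaks had signal values under 15. The peak of 239 alone supplied 43.5% of its sum. In the chemokine stretch the median was 18.6, with 5 of 15 peaks (33.3%) under 15, and the peak of 134 supplied 28.6% of the sum. Signal values under 15 were given to 35.6% of the list and to 27.8% of the window's peaks, so both stretches were near the list in this share. Below the chemokine stretch the median was 26.5, and 12 of 16 peaks reached 20. In the chemokine stretch 7 of 15 did so and in the EGF-ligand stretch 6 of 15, against 41.8% of the list.

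**Figure D4:**
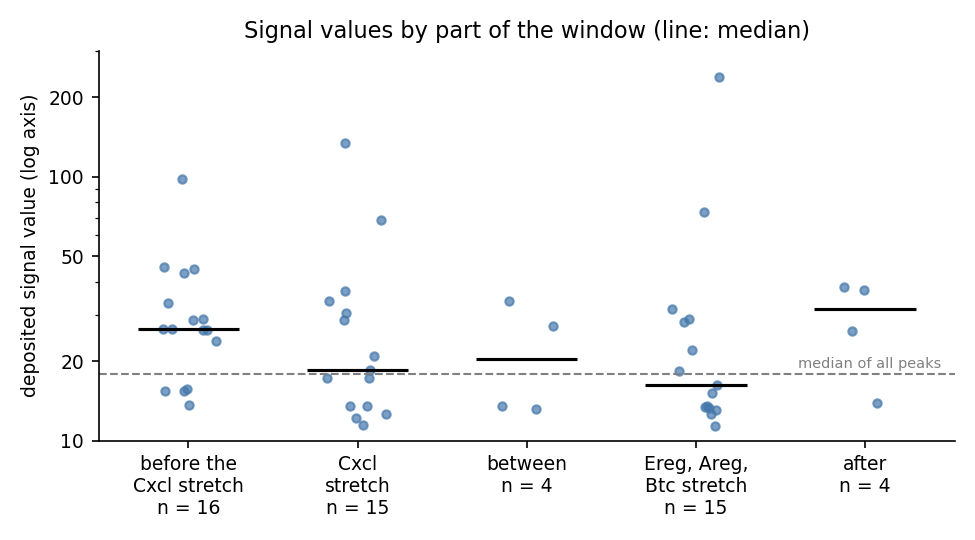
Deposited signal value (vertical, log axis) of each peak, as a point, in 5 parts of the window along the chromosome; black lines are medians and the dashed line is the median of all peaks, 17.8. The medians run from 16.3 in the Ereg, Areg and Btc stretch to 31.6 in the last part, which holds 4 peaks.

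In steps of 100 kb the fullest part was 91.1 to 91.2 Mb, just below the approximate edge of the chemokine stretch, with 13 peaks and a summed signal of 432. The steps from 91.2 to 91.3 and from 91.3 to 91.4 Mb held 8 peaks each. The step from 91.7 to 91.8 Mb, which contains the strongest peak, held 6, with a summed signal of 353. The step before it, from 91.6 to 91.7 Mb, held 2 peaks of signal values 13.6 and 11.4, among the weakest in the window.

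Summits were closely spaced. The median distance between neighbours inside the window was 5.83 kb, against 24.8 kb over the list. Another summit lay within 10 kb of 48 of 54 peaks (88.9%), against 52.3% of all peaks, and within 2000 bp of 19 (35.2%), against 25.8%. Joining summits less than 10 kb apart gave 21 groups. Of these, 6 were single peaks, which is 11.1% of the window's peaks, against 47.7% of all peaks. Groups of 4 or more peaks held 23 of the 54 (42.6%), against 13.99% of peaks in the list. The largest group held 7 peaks, and 91 of 19537 groups in the list held at least as many. A dense window has close summits by its number of peaks alone, so these values are not a separate feature of the locus.

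The largest group lay in the chemokine stretch, where 7 peaks stood between summits at 91305268 and 91320194, a span of 14.9 kb. Its signal values in order along the chromosome were 68.3, 11.4, 12.2, 21.0, 33.9, 18.6 and 13.6, so 1 strong peak at the lower end was followed by weaker ones. A group of 4 lay at the low end of the same stretch, between 91208180 and 91223316, with signal values of 28.7, 13.5, 17.3 and 36.8. The peak of 134 shared its group with only 1 other, of signal value 30.4 at a distance of 7208 bp.

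Below the chemokine stretch, 4 peaks between summits at 91106443 and 91117082 had signal values of 28.6, 45.6, 43.1 and 15.6, and the stronger pair stood 1250 bp apart. A further 4 between 91147151 and 91160561 included the peak of 97.8 and had 13.6, 15.4 and 44.7 for the others. In the EGF-ligand stretch, the group of 4 between 91530805 and 91547871 reached at most 18.3. The strongest peak of that stretch lay in a smaller group, of 3 peaks.

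The strongest peak had weaker neighbours, as it must, being the highest of the window. Its group held 2 more peaks, with signal values of 22.0 and 15.2, on its lower side, the nearer at 4553 bp. Over the list the median distance to the nearest summit was 8.885 kb, and the median signal value was 17.8. On the upper side the next summit was 19.96 kb away, with a signal value of 31.7. All 5 peaks at or above 50 had a neighbour within 10 kb, against 59.1% of such peaks in the list. Among all peaks of this dense window, 88.9% had one. Within 2000 bp 3 of the 5 had a neighbour, against 30.5% of such peaks in the list and 35.2% of all peaks in the window. In those 3 the neighbour was weaker: 13.6 at 1015 bp from the peak of 97.8, 11.4 at 543 bp from that of 68.3, and 28.1 at 1898 bp from that of 73.6. Only 7.97% of the list reached 50, so a neighbour below 50 is the usual case.

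Close pairs may share DNA fragments and were counted as listed. All peaks in the list were 460 bp wide, and 1 pair in the window overlapped, with summits 352 bp apart at 91994492 and 91994844 and signal values of 38.3 and 13.9. A further pair, with summits 464 bp apart at 91319730 and 91320194, had signal values of 18.6 and 13.6 in the chemokine group of 7. Whether such pairs were 1 site or more was not tested.

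A few long intervals without a peak lay between groups, while most groups stood closer together. Distances over 50 kb occurred 4 times among the 53 between neighbours in the window. The share of such distances over the whole list was not computed. The longest, 164.8 kb, ran from 91829671 to 91994492. The next, 100.1 kb, started at 91365735 between the gene stretches, and the others were 88.7 kb from 91740931, at the upper end of the EGF-ligand stretch, and 74.7 kb from 91571421, inside it. At an unknown depth, an interval without a peak is one in which none was detected.

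The q-values did not always rank these peaks as the signal values did. In 138 of the 1431 pairs of peaks in the window, the one with the higher signal value had the larger, less favourable q-value. For the whole list the share of such pairs was not computed. The peak at 91223086, with a signal value of 36.8, had a q-value of 0.000576, whereas that at 91183049, with 26.2, had 0.000443. The heights above were described by signal value, as set in the design beforehand.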

How the data were processed

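Chromatin from untreated MEFs was sequenced in 8 libraries (3 Foxk1, 3 IgG, 2 input, grouped by sample title). Reads were aligned to mm9 with Bowtie, per the submitters' processing notes. No version, peak caller, caller setting or pooling of replicates is named by those notes or the labels. The deposited file is 1 peak list of the authors, named Foxk1 against input in its track line, with a signal score per peak and a q-value on a linear scale from 0.00014 to 0.00995. Depth per library is unknown.

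Peaks with a summit (start plus offset) from 91.0 to 92.0 Mb of chromosome 5 were selected, with coordinates written 1-based. The window, gene stretches and lists were chosen with earlier results of these data known. Stretch edges came with the window and are approximate. Reference values are the same measures over all peaks, or over 1 Mb windows on the autosomes and X up to the last peak of each. Peaks described singly are the 10 of highest signal and the nearest on both sides of each edge, by a rule written with the design; others were named after their values were seen, as parts of a group or pair. The planned placement of peaks relative to genes, other pathway genes, summit motifs and protein sequences was not run, for lack of an mm9 annotation, genome and protein table. Counting and merging were tested on simulated lists. Alternatives were signal and q-value limits, merging, moved edges and other grouping distances. Computation used Python 3.11.15 with numpy 2.4.6, pandas 2.3.3, scipy 1.17.1 and matplotlib 3.10.9.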

Additional observations from a re-analysis of the deposited data

How the results depend on the processing

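A signal limit at the median of the list left 32 peaks in the window, 8 in the chemokine stretch and 7 in the EGF-ligand stretch, and raised the median signal value to 29.65 and the share of its peaks at or above 50 to 15.6%, against 15.9% of the list under the same limit. A q-value of at most 0.001 left the same numbers, 32, 8 and 7. Both limits keep a part of the list. Merging, window edges moved by 100 kb, and grouping distances of 5 or 20 kb moved no count by over 1.5 times. The window's median signal value was 21.5 with edges moved inward by 100 kb and 23.9 with edges moved outward, against 24.9 as reported. The list median was 17.8. Widening both stretches by 50 kb on each side, chosen after seeing the data, gave 20 and 19 peaks and left the highest signal values at 134 and 239. No paired analysis was possible because peaks have no values by replicate here, and so no replicate could be left out. Weak sites may be missing at a depth that is not known.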

Other observations

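The other 5 windows of 1 Mb with 54 or more peaks lay on chromosomes 6, 11, 15 and 19, the last of which held 2. Their median signal values ran from 16.7 to 19.6, below the 24.9 of the chromosome 5 window, and their highest peaks from 84.3 to 201, below its 239. The shares of their peaks at or above 50 ran from 6.56% to 14.8%, on both sides of its 9.26%. The next fullest window of chromosome 5, from 107 to 108 Mb with 41 peaks, had a median of 16.5 and 10 peaks at or above 50, against 5 here. These differences were not tested.

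Among the 6 neighbouring protein-coding genes, the promoter of Rassf6, a Ras-association domain protein, held the forkhead word GTAAACA (1 of 6, against 3.65% of all promoters), and those of Rassf6, Cxcl15 and Epgn held the shorter TAAACA (3 of 6, against 13.4%). The AP-1 word TGACTCA was in 0 of 6, against 5.2%. None of the 6 held the run of 11 bases shared by Cxcl1, Cxcl2 and Cxcl3. These are matches of letters in GRCm38.p6 promoters and were not set against the peaks.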
